A study of Homo sapiens with 10 samples.

Results

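The accessible chromatin of 9 genes that restrain RAS-MAPK signalling was described from ATAC-seq of MDA-MB-231, an established line of triple-negative breast cancer. The genes were 3 Sprouty genes (SPRY1, SPRY2 and SPRY4), 3 Sprouty-related genes with an EVH1 domain (SPRED1, SPRED2 and SPRED3) and 3 dual-specificity phosphatase genes (DUSP4, DUSP5 and DUSP6). The peaks taken for each gene were those that the deposited table lists to it, together with every peak within 50000 bases of its hg38 span. This gave 134 of the 161934 peaks, of which 38 lay at SPRY, 51 at SPRED and 45 at DUSP loci. The study holds 5 ARID1A knockout and 5 control libraries, all from this line, and ARID1A belongs to the SWI/SNF complex, which remodels chromatin. How the knockout was made, and whether it is 1 clone, is not given in the labels. The table is a single peak list for the series, and whether all 10 libraries went into it is not stated. It has 0 columns of values per library and no peak height. Knockout and control could therefore not be compared here, the values below have no replicate error, and the depth behind them is unknown. A peak lay within 1000 bases of the start at 5 of 5 genes typical of the line (VIM, CD44, EGFR, FOSL1 and AXL), 3 of 5 luminal genes and 0 of 2 leukocyte genes, against 74.1% of protein-coding genes. With any listed transcript start counted, it was 5 of 5, 5 of 5 and 1 of 2, so these counts do not check the label of the line.

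Growth factor receptors activate RAS, which passes the signal through RAF and MEK to the kinase ERK. Sprouty proteins block the step between receptor and RAF. SPRED proteins bring the RAS inactivator neurofibromin to the membrane. DUSP4, DUSP5 and DUSP6 remove the activating phosphates from ERK, DUSP4 and DUSP5 in the nucleus and DUSP6 in the cytoplasm, and DUSP4 also acts on other MAP kinases. Several of these genes are themselves switched on by ERK and so form a negative feedback loop. MDA-MB-231 carries an activating mutation of BRAF.

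The sequence before 4 of the starts is shown because these starts carried the longest peak (SPRY1), the shortest (SPRY2), a peak shared with a neighbouring gene (SPRED3) and a pair of adjoining peaks (DUSP6). Each run holds the 250 bases upstream of the outermost RefSeq start (GRCh38.p14), 5′ to 3′ on the strand of the gene, and capitals mark matches to the motifs described after them.
SPRY1 (chr4:123396545-123396794, plus strand): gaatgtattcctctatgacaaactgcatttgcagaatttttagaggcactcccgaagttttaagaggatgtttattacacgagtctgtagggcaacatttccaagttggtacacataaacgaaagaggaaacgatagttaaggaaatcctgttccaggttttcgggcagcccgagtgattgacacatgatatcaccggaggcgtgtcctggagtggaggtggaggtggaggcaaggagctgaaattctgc
SPRY2 (chr13:80341127-80341376, minus strand): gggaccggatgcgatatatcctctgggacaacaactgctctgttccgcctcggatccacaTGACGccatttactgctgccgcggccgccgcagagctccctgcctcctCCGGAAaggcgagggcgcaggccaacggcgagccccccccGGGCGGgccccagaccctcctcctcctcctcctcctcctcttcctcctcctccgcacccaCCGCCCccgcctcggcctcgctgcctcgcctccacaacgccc
SPRED3 (chr19:38388447-38388696, plus strand): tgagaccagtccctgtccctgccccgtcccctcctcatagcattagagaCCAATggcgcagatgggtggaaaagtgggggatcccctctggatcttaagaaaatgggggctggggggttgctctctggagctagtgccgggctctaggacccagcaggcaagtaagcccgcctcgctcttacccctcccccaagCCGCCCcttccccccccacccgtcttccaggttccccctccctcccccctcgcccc
DUSP6 (chr12:89352502-89352751, minus strand): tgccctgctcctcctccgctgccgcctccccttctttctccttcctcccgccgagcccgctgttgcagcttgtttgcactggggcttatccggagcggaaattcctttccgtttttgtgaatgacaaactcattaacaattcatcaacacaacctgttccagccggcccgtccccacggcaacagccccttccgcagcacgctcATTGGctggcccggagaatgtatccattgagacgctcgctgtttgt

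RefSeq held 12 promoter windows for 7 of the 9 genes, each with 250 bases before and 50 after a transcript start. The start lay inside a peak at 9 of the 12, against 52.3% of 34961 entries on chromosomes 1 to 22 and X. The start of SPRY4 at an offset of 774 bases into the gene, and the inner starts of SPRY2 at 1018 and 1467 bases, were the 3 outside a peak. Motifs were searched on both strands of the 300 bases. The ETS core CCGGAA, the site of a factor class that ERK phosphorylates, was found in 1 of 6 windows at an outermost start, that of SPRY2, and in 17.2% of all 35116 windows. The short cyclic-AMP response element TGACG was found in SPRY2 and SPRED2 (2 of 6, against 24.6% of all windows), and the full palindrome TGACGTCA, which contains it, in 0 of 6 (1.85%). The AP-1 site TGANTCA was in 0 of 6 (7.71%), though inner starts of SPRED2 and SPRED3 held it. CCAAT was found in DUSP6 and SPRED3 (2 of 6, against 34.6%) and the SP-type box GGGCGG in SPRY2, SPRED1, SPRED2 and SPRED3 (4 of 6, against 45%). The SPRY1 window at the outermost start held none of these motifs and had a GC content of 47.7%, against a median of 58.67% over all windows. Its inner start, 1591 bases into the gene, had 69.3% GC and held the ETS core and 2 SP boxes. Of the 300 bases at the outermost SPRY1 start 204 were inside the peak, while the 300 bases at the inner start were covered whole.

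All 9 genes had a peak within 1000 bases of the outermost 5′ boundary of the RefSeq gene, and in all 9 a peak covered that boundary. Among 18738 protein-coding genes of known strand, 74.1% had such a peak and in 65% a peak covered the start. For 2926 of these genes the strand came from the deposited table, so they entered only with a peak listed to them. This can raise the shares over protein-coding genes. Of 22 transcript starts that the deposited table lists for the 9 genes, 15 were inside a peak. The longest peak at the start (the start peak) had a median length of 1534 bases over the 9 genes, against 1257 bases over the 13879 genes with a start peak (quartiles 959 and 1576). This median is the value of SPRED3, whose start peak the table lists to the neighbouring gene GGN. The only peak listed to SPRED3 itself was 503 bases long. The start peak was 2000 bases or longer at 4 of the 9, namely SPRY1, SPRY4, SPRED1 and SPRED2. This cut was set after the lengths were seen. The share over all 18738 protein-coding genes, including those without a start peak, was 6.12% (1146 genes). The 3 DUSP genes had start peaks within 203 bases of each other in length, while the SPRY and SPRED genes each spanned a wider range.

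**Figure D1:**
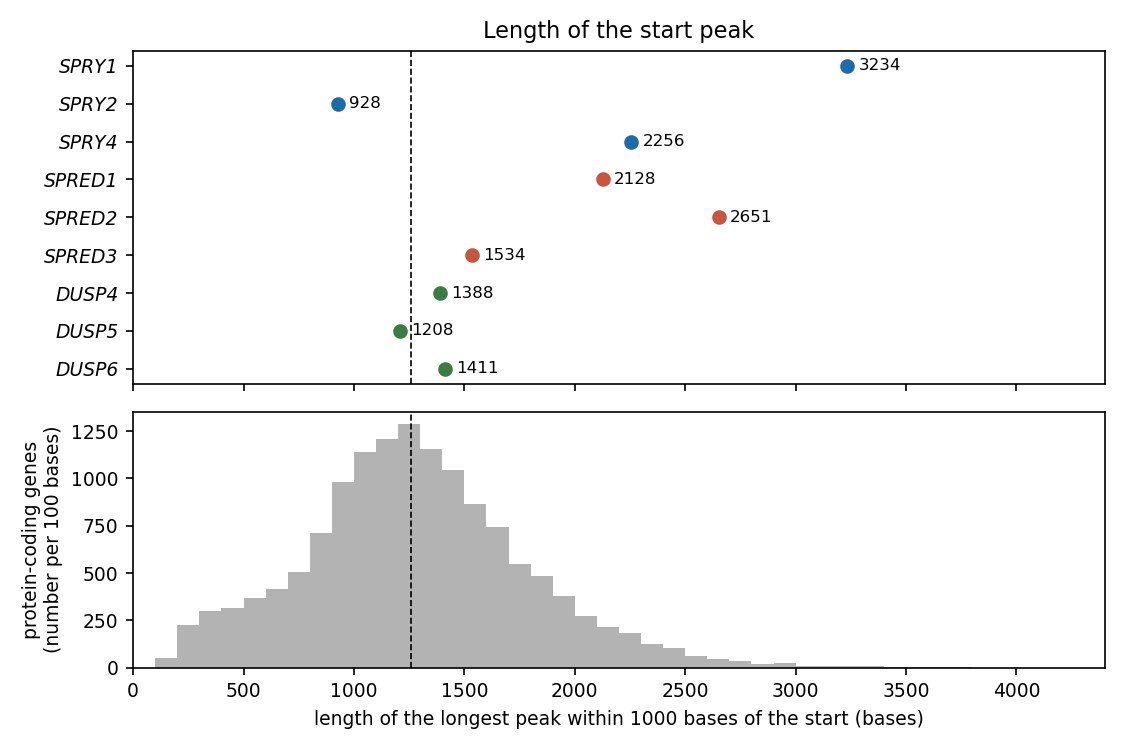
Length in bases of the longest peak within 1000 bases of the start at each of the 9 genes (upper panel, 1 point per gene, blue SPRY, red SPRED, green DUSP) and at all protein-coding genes with such a peak (lower panel, number of genes per 100 bases). The dashed line is the median of the lower panel, 1257 bases, and 7 of the 9 points lie above it. Among these is SPRED3, whose start peak is listed to the gene GGN.

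Among the Sprouty genes, which differ most, SPRY1 (ENSG00000164056, chromosome 4, 123396795 to 123403760, plus strand) had the longest start peak of the 9. It measured 3234 bases, from 123396641 to 123399874, and was longer than 99.8% of start peaks of protein-coding genes. It began 154 bases before the start and ran 3079 bases into the gene, so that 44.2% of the gene lay in this single peak. SPRY4 (ENSG00000187678, chromosome 5, 142310430 to 142325021, minus strand) had a start peak of 2256 bases, which lay mostly upstream, from 1707 bases before to 548 bases after the start. The table lists a transcript of SPRY4 that begins 1434 bases further upstream, and this start was inside the same peak. One end of the antisense RNA gene SPRY4-AS1, at 142325293, also lay inside it, so the peak is not that of SPRY4 alone by position. SPRY2 (ENSG00000136158, chromosome 13, 80335976 to 80341126, minus strand) had the shortest, 928 bases, below the lower quartile of all genes. Around it lay separate peaks of 734, 281 and 513 bases, all listed to SPRY2 and annotated as promoter. Between 2162 bases before and 2293 bases after the SPRY2 start there were thus 4 short peaks, and at the SPRY1 start 1 long peak.

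SPRED1 and SPRED2 both had long start peaks, which lay on opposite sides of the start. At SPRED2 (ENSG00000198369, chromosome 2, 65307175 to 65432599, minus strand) the peak of 2651 bases reached 388 bases upstream and 2262 bases into the gene. At SPRED1 (ENSG00000166068, chromosome 15, 38252836 to 38357249, plus strand), the gene lost in Legius syndrome, the peak of 2128 bases reached 1732 bases upstream and 395 bases into the gene. The start of a SPRED1 transcript in the table lies 510 bases upstream of the RefSeq boundary, inside this peak. SPRED3 (ENSG00000188766, chromosome 19, 38388697 to 38399587, plus strand) begins 0.312 kb from the coding gene GGN, which runs the other way. The peak of 1534 bases that covered the SPRED3 boundary was listed to GGN. The only peak listed to SPRED3 itself was 503 bases long and lay 736 to 1238 bases into the gene, where it covered the SPRED3 transcript start used by the table. Peaks do not show which of a pair of divergent genes they serve.

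The DUSP genes had start peaks of 1388 bases at DUSP4, 1208 bases at DUSP5 and 1411 bases at DUSP6, shorter than all others but that of SPRY2. The DUSP4 peak lay mostly upstream, from 1028 bases before to 359 bases after the start. Those of DUSP5 (534 before, 673 after) and DUSP6 (610 before, 800 after) were more even. DUSP6 (ENSG00000139318, chromosome 12, 89347235 to 89352501, minus strand) had another peak of nearly the same length, 1401 bases, directly upstream, with a gap of 235 bases between them. The table lists a longer DUSP6 transcript that begins in that gap. DUSP4 (ENSG00000120875, chromosome 8, 29333064 to 29350684, minus strand) had 5 peaks between 2221 bases before and 2064 bases after the start, with gaps of 320, 46, 160 and 535 bases. The 2 most upstream of these were listed to other genes. DUSP5 (ENSG00000138166, chromosome 10, 110497907 to 110511533, plus strand) had a single peak within 1000 bases of its start, and 641 bases upstream of it lay another of 554 bases at the start of the divergent transcript DUSP5-DT. A pair of further peaks listed to DUSP5 and annotated as promoter lay in the gene, 300 bases long at 1543 to 1842 and 592 bases long at 3019 to 3610 bases from the start. At least 2 peaks lay within 1000 bases of the start at SPRY2, SPRED3, DUSP4 and DUSP6, that is at 4 of 9 genes against 5.45% of protein-coding genes.

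The length of a start peak depends on whether neighbouring peaks are called apart. With gaps of at most 200 bases joined, DUSP4 reached 2423 bases and the other 8 did not change. With gaps of at most 500 bases joined, a setting added after the data were seen, DUSP4 reached 3056, DUSP6 3047, SPRED3 2516 and SPRY2 1477 bases. The DUSP median then stood at 3047 bases, above SPRED (2516) and SPRY (2256), whereas single peaks gave 1388 for DUSP, 2128 for SPRED and 2256 for SPRY. The order of the families therefore turned with this setting. Of the 9 genes 7 then had a start peak of 2000 bases or more, against 8.88% of protein-coding genes.

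**Figure D2:**
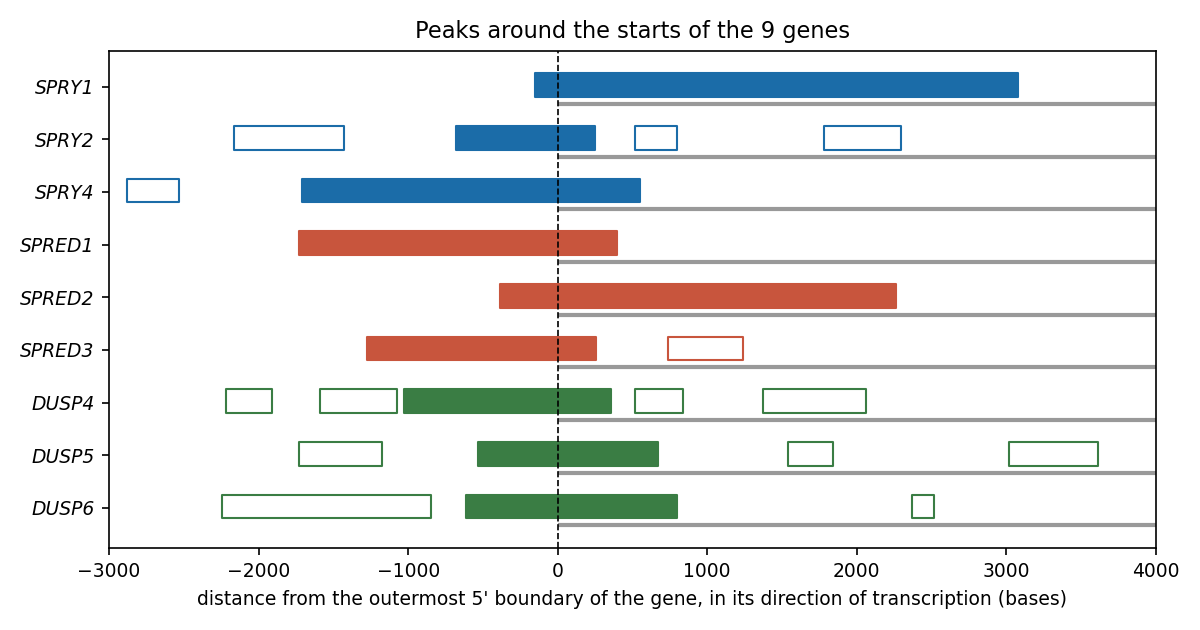
Peaks from 3000 bases before to 4000 bases after the start of each gene (horizontal axis, bases, in the direction of transcription; gene in grey). Filled boxes are the start peaks and open boxes all other peaks. The SPRY1 and SPRED2 start peaks lie mostly in the gene, and those of SPRY2, SPRY4, SPRED1, SPRED3 and DUSP4 mostly upstream. SPRY2, DUSP4, DUSP5 and DUSP6 show several separate boxes.

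Away from starts, 85 of the 134 peaks (63.4%) lay more than 3000 bases from every transcript start in the table and are called distal here, against 69.6% of the whole list. They numbered 27 at SPRY, 28 at SPRED and 30 at DUSP loci, and this order depended on how they were counted. Peaks of the Distal Intergenic class alone numbered 20 at SPRY, 8 at SPRED and 22 at DUSP loci, and distal peaks listed to the gene itself 16, 14 and 10 in the same order. The windows differ in length, since each holds the gene and 50000 bases on either side. Distal peaks per 100 kb of window had a median of 5.71 over the 9 genes, against 3.89 over protein-coding genes, and 6 of the 9 lay above that median. The 3 DUSP windows were all above it, with 9.35 at DUSP4, 11.4 at DUSP5 and 5.7 at DUSP6. SPRY windows held 3.74 at SPRY1, 5.71 at SPRY2 and 10.5 at SPRY4 per 100 kb, and SPRED windows 2.94 at SPRED1, 8.43 at SPRED2 and 2.71 at SPRED3. Each family but DUSP thus held members on both sides of the median. MDA-MB-231 is aneuploid, and the part of copy number in these counts was not tested.

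**Figure D3:**
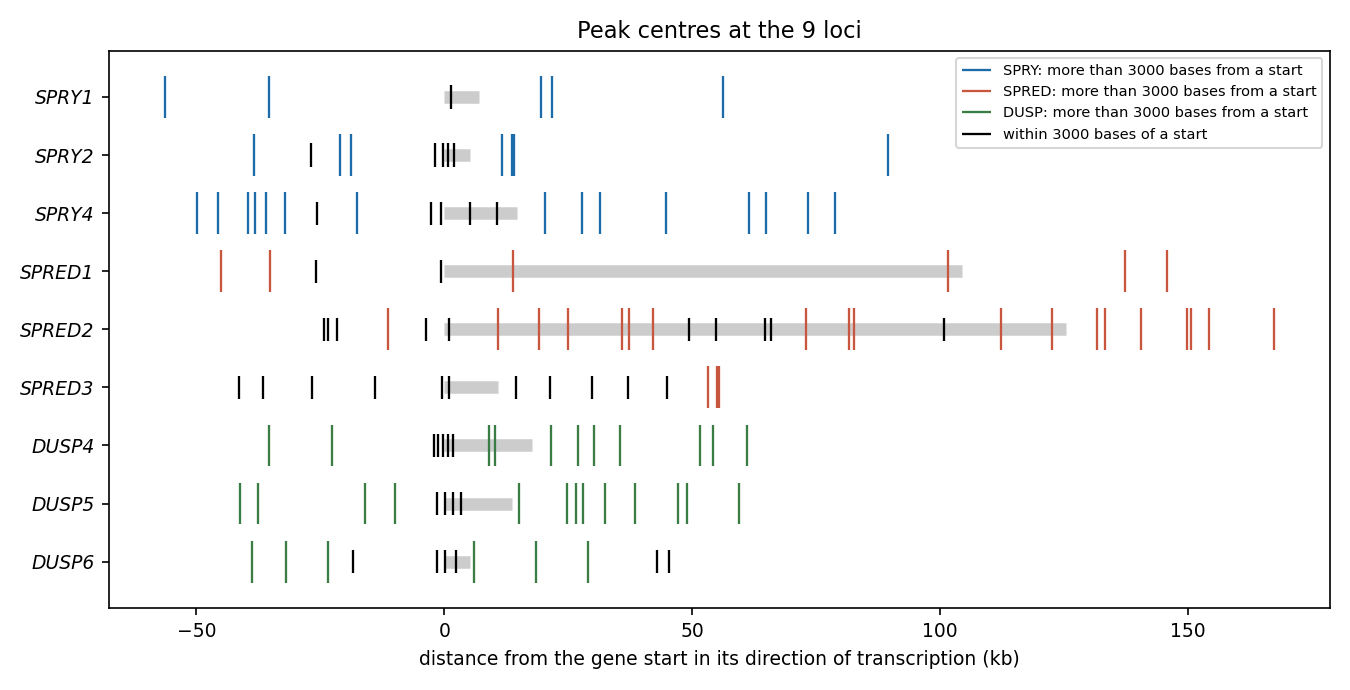
Peak centres at each locus against distance from the gene start in kb, in the direction of transcription, with the gene body in grey. Long coloured ticks are the 85 distal peaks, and short black ticks the 49 peaks within 3000 bases of a transcript start of any gene. SPRED2 and SPRY4 have the most distal ticks, while all but 3 of the SPRED3 ticks are black.

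SPRY4 and SPRY1 mark the range within the Sprouty family. SPRY4 had 20 peaks, of which 15 were distal, with 7 upstream, 8 downstream and 0 within the gene. All 7 of the upstream group lay within the span of the antisense RNA gene SPRY4-AS1 and were annotated as intron. Of these, 6 lay between 31529 and 49956 bases from the start, and the longest measured 1191 bases. Downstream, peaks listed to SPRY4 continued to 79415 bases, beyond the window, where a peak of 1287 bases was the longest distal peak of the locus. SPRY1 had only 6 peaks, 5 of them distal and none over 919 bases, so that the start peak held 63% of the bases that peaks covered in its window. SPRY2 had 7 distal peaks, which were short, with a median of 424 bases and a maximum of 592. It lies in a gene-poor stretch, 780 kb from NDFIP2 and 3540 kb from SLITRK1, and its farthest listed peak lay 89318 bases downstream.

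SPRED2 had the most peaks of the 9 genes, 29, of which 16 lay in the body away from the start. Its 19 distal peaks comprised 11 in the body, 7 downstream and 1 upstream. Of the 19, 6 were at least 1000 bases long. The longest distal peak of all loci, 1697 bases at 65300056 to 65301752, lay downstream of SPRED2, between it and ACTR2, which encodes a subunit of the ARP2/3 actin complex. Inside SPRED2, a peak of 619 bases covered a second RefSeq start 65821 bases into the gene, and a peak of 766 bases covered a listed transcript start at 54849 bases. SPRED1, a gene of similar length (104414 bases, against 125425 for SPRED2), had 8 peaks and only 2 in the body away from its start. These were 679 bases in an intron and 331 bases in the 3′ untranslated region, leaving the gene between 14167 and 101436 bases without a peak in the list. SPRED3 lies among closely spaced genes, and 11 of its 14 peaks were annotated as promoter. Its 3 distal peaks, 225 to 422 bases long, all lay inside RYR1, the gene of the calcium release channel of skeletal muscle.

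Distal peaks of the DUSP loci had the highest median length of the 3 families. It was 763 bases, against 510 at SPRY, 505 at SPRED and 500 over the 112783 distal peaks of the list. At least 1000 bases were reached by 10 of 30 at DUSP, 5 of 27 at SPRY and 6 of 28 at SPRED loci, together 24.7% of the 85, against 11% of distal peaks in the list. DUSP5 had 13 distal peaks with a median of 873 bases, 4 upstream and 9 downstream, and 5 of them reached 1000 bases. DUSP4 had 11 with a median of only 546 bases, below the medians of SPRY4 (667 bases) and SPRED1 (619.5 bases). Of its 11 distal peaks, 3 reached 1000 bases. They measured 1374 bases in an intron, 1318 bases downstream of the gene and 1563 bases at 21851 bases upstream of the start. DUSP6 had 6, with a median of 837 bases, 3 on either side. The 3 upstream lay within POC1B-DUSP6, a coding gene that overlaps DUSP6, so that 3 remained outside other coding genes. Lengths overlapped widely between the families, from 210 to 1563 bases at DUSP, 182 to 1287 at SPRY and 176 to 1697 at SPRED loci, and no test was made because peaks of 1 locus are not replicates.

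**Figure D4:**
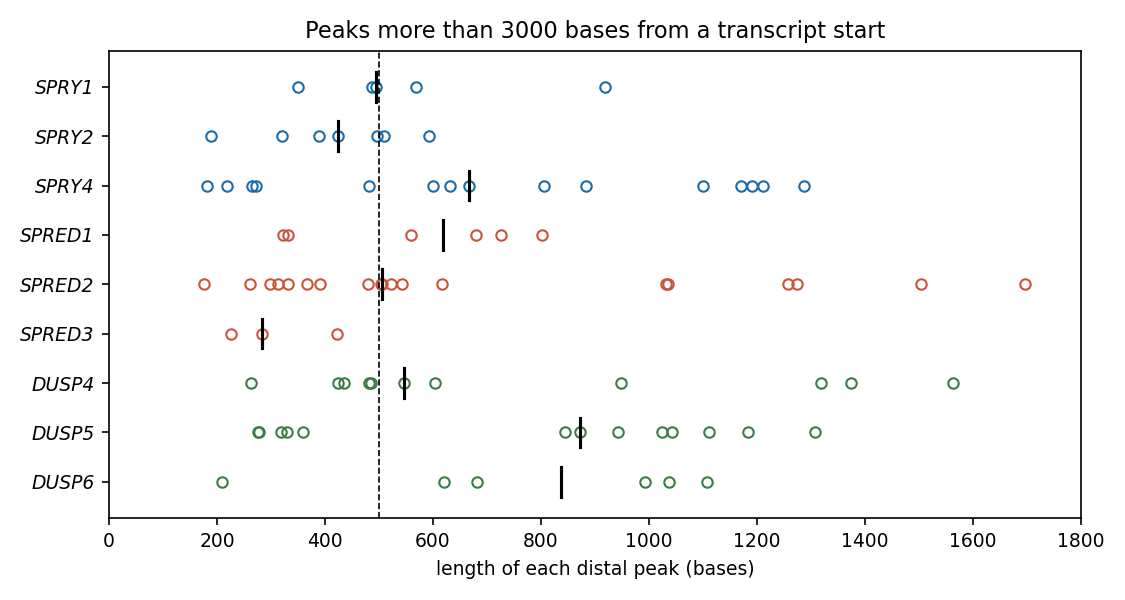
Length in bases of each distal peak (open circles) by gene, with the median of each gene as a black bar. The dashed line is the median of all distal peaks in the list, 500 bases. The medians of DUSP5 (873 bases) and DUSP6 (837 bases) lie farthest to its right and that of SPRED3 (284 bases) farthest to its left. The median of DUSP4 (546 bases) lies close to the line.

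The table lists each peak to the gene with the nearest transcript start, which gave 63 of the 134 peaks (47%) to the gene itself. The share was 63.2% at SPRY, 41.2% at SPRED and 40% at DUSP loci. At DUSP6, 2 of 12 peaks were listed to DUSP6 and 0 of its 6 distal peaks. The others were listed to the pseudogene MRPS6P4 and to 3 genes that could not be paired with a symbol. At SPRED1, 2 of 8 peaks were listed to SPRED1, and the peak in its own 3′ untranslated region was listed to FAM98B. At DUSP5, 5 peaks were listed to the pseudogene RPL7P35. At SPRY4, 8 peaks were listed to an Ensembl identifier that could not be paired with a symbol. Its listed start lies within the span of SPRY4-AS1, and the pairing by position does not tell whether it is SPRY4-AS1 itself. Counts by listed gene therefore ranked DUSP6 with SPRED1 (2 each), whereas counts by window gave 12 and 8 peaks. At the window edge, the nearest peak to fall outside lay 50059 bases from SPRY4 and 50125 bases from DUSP5, and the farthest inside lay 49738 bases from SPRY4.

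**Figure D5:**
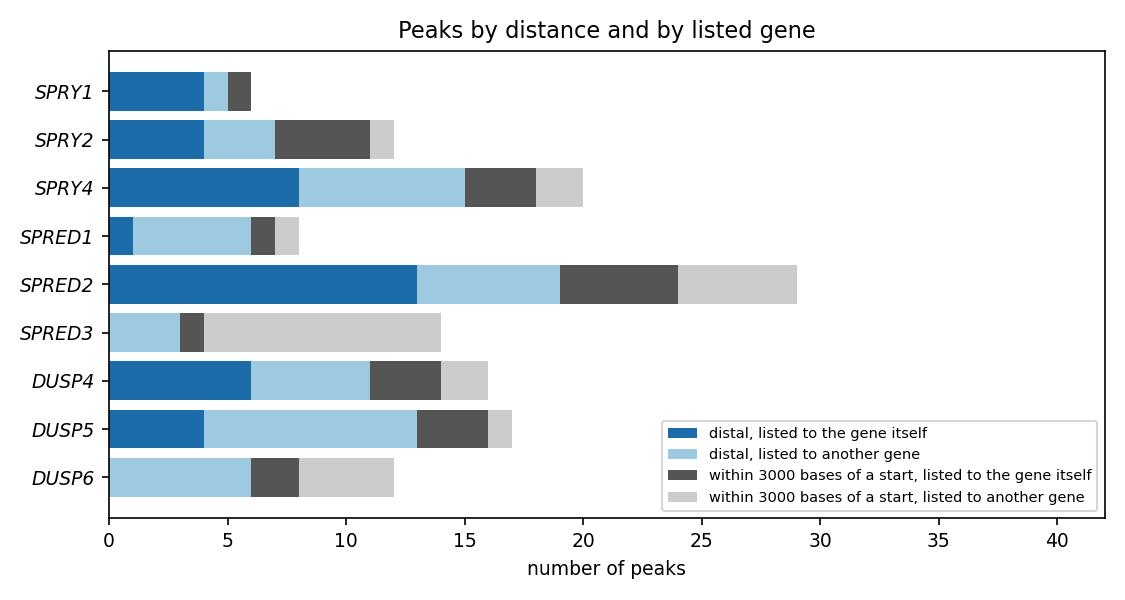
Number of peaks at each gene, split by distance (distal in blue, within 3000 bases of a transcript start in grey) and by the gene the table lists (dark for the gene itself, light for another). SPRED2 has the longest bar with 29 peaks and SPRY1 the shortest with 6, and DUSP6 and SPRED3 have no dark blue part.

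The rest of the pathway was described from 4 lists. Of 45 genes whose start could be placed, 44 had a start peak, against 74.1% of protein-coding genes. All 17 core genes of the RAS-RAF-MEK-ERK cascade had one, with a median of 1324 bases. The longest were at the adaptors GAB1 (2244 bases) and GRB2 (2148 bases) and at SHOC2 (2035 bases), a scaffold that promotes RAF activation. BRAF had 1694 bases. All 11 other negative regulators had one, with a median of 1583 bases, the longest at the RAS GTPase activators RASA3 (2279 bases), RASA2 (2187 bases) and RASAL2 (1746 bases). NF1, the gene of neurofibromin, had 1583 bases. Of 7 other MAP kinase phosphatases 6 had one, with a median of 1565 bases and 2287 at DUSP1, 1981 at DUSP16 and 1925 at DUSP10. DUSP9 was the exception, though another of its listed starts had a peak. All 10 ERK-induced genes had one, and here the median was 1988 bases, with EPHA4 (2888 bases), FOS (2599 bases) and EGR1 (2325 bases) leading. A start peak of 2000 bases or more was found at 5 of these 10, at 4 of 17 core genes, at 2 of 11 negative regulators and at 1 of 7 phosphatases, beside 4 of the 9 feedback inhibitors and 6.12% of all protein-coding genes. ETV4 was also on the list and was not analysed here.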

How the data were processed

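The Tn5 transposase used in ATAC-seq cuts open DNA, and it was applied to 5 ARID1A knockout and 5 control libraries. The submitters' processing notes name Bowtie2 2.3.5.1, an aligner, MACS2 2.2.6, a peak caller, and the build hg38. Thresholds, duplicate handling, any Tn5 shift, the merging of libraries and the annotation release, which set how peaks are split and how long they are, were not given in the sources used here. Per the file headers, the deposited table gives positions, lengths and distances to transcript starts in bases, with no values per library. Some rows may lie outside the table as analysed here.

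RefSeq genes (GRCh38.p14) were paired with Ensembl identifiers by position, each the best match of the other where the shared bases made up 0.5 or more of the joint span. For the 9 genes this was 0.6 to 0.999. Strand came from the RefSeq promoter table (15812 protein-coding genes) or the deposited table (2926). It was unknown for 1236 genes, which were left out, and the same by both for 99.7% of 11961. The lookup and the pairing were tested on simulated data. The members, lists and thresholds were chosen with earlier results of these data known, and the cut of 2000 bases after the lengths were seen. All 9 members were named. From each list the 3 genes with the longest start peak and those without one were named, and NF1, BRAF and the neighbouring genes were added after their values were seen. A gene of the pathway lists is not reported here. Python 3.11.15, numpy 2.4.6 and pandas 2.3.3 were used.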

Additional observations from a re-analysis of the deposited data

How the results depend on the processing

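No paired analysis was possible because the table gives no values of single libraries. No library could be left out, and what depth limits is unknown. All 9 genes kept a start peak with the start inside the peak and among peaks of at least the median length of 539 bases. A window of 3000 bases and the count at any listed transcript start also gave 9. Both settings include every gene already counted, so they could not give fewer. The median start peak, 1534 bases as reported, was the same for the nearest peak and with 3000 bases, 2128 with gaps of at most 200 bases joined and 2516 with gaps of at most 500 bases joined. The 134 peaks became 63 by listed gene alone, 88 with a window of 20000 bases, 195 with 100000 bases and 71 among peaks of at least the median length. The 85 distal peaks became 58 beyond 10000 bases, 50 in the Distal Intergenic class alone, 40 by listed gene alone and 78 outside other coding genes. The 21 motif matches in 12 windows became 12 on the strand of the gene alone. Of the 45 pathway genes, 44 had a peak within 3000 bases, where the wider window could not give fewer, and 43 at the start itself. These changes follow from how each alternative is built. Of 120 values for single genes or families, 71 were the same or, for counts, within 1.5 times, and 49 moved further.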

Other observations

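Among the 3 nearest coding genes on either side, some pairs of the same family have related neighbours. SPRED1 is followed by FAM98B and RASGRP1, and SPRED3 by FAM98C and RASGRP4, where the RASGRP genes encode activators of RAS. The spacing differs. The gaps from SPRED1 were 96.9 kb to FAM98B and 131 kb to RASGRP1, and those from SPRED3 were 3.5 kb to FAM98C and 9.47 kb to RASGRP4. All 4 of these neighbours had a start peak, of 910 bases at FAM98B, 1482 at RASGRP1, 1052 at FAM98C and 683 at RASGRP4. Those of FAM98B and RASGRP1 were shorter than the SPRED1 start peak of 2128 bases. Those of FAM98C and RASGRP4 were shorter than the 1534 bases of the peak over the SPRED3 boundary, which the table lists to GGN, but longer than the 503 bases of the peak listed to SPRED3. SPRED2 has neither a FAM98 nor a RASGRP gene among these neighbours. It has the homeobox gene MEIS1 upstream at 1000 kb, with a start peak of 2700 bases, and SPRED1 has MEIS2 upstream at 1150 kb, with 2084 bases.

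SPRY2 has NDFIP2 as its downstream coding neighbour at 780 kb, and SPRY4 has NDFIP1 at 156 kb. The NDFIP genes encode adaptors of NEDD4-type ubiquitin ligases, and their start peaks measured 1104 bases at NDFIP2 and 1338 at NDFIP1. SPRY4 also has FGF1 upstream at 267 kb and SPRY1 has FGF2 upstream at 499 kb, genes of fibroblast growth factors, whose signal Sprouty proteins restrain. FGF1 had a start peak of 657 bases, while FGF2 lacked a peak within 1000 bases of its start and held 3 in its body. No NDFIP gene was among the neighbours of SPRY1, no FGF gene among those of SPRY2, and the 3 DUSP genes had no such pair. These neighbours were looked up after the peaks had been seen.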
